A study of Homo sapiens with 121 samples.

Results

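The 10 genes described here encode the ATRX-DAXX histone chaperone and the core enzymes and readers of heterochromatin: ATRX, DAXX, SETDB1, SUV39H1, SUV39H2, EHMT2, CBX1, CBX3, CBX5 and TRIM28. They were chosen by name, not by their values, from the 25610 genes read from the expression table, and all 10 were present. The expression values came from 121 single cells of the human embryonic stem cell (hESC) line WA26, an established line kept undifferentiated in E8 medium on Matrigel without feeder cells. For each cell the polyA RNA was captured and sequenced after Smart-seq2 amplification, and the genomic DNA of the same cell served for a quantitative PCR of relative telomere length, the T/R ratio of telomere to reference signal. By their labels 81 cells had long, 25 had medium and 15 had short telomeres, and the groups shared the same line, medium and passaging with no treatment or genotype between them. All 121 labels lay within the borders of the T/R ratio, short up to 0.4, medium up to 1 and long above 1.

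Heterochromatin at chromosome ends and repeats is built on trimethylation of lysine 9 of histone H3, written by methyltransferases and bound by the heterochromatin protein 1 (HP1) family. ATRX and DAXX deposit the histone variant H3.3 at telomeres and pericentromeres, and loss of either is a known mark of cancer cells that lengthen telomeres without telomerase. TRIM28 (KAP1) is brought to retroelements by zinc finger proteins and recruits SETDB1 there, a pathway known for silencing endogenous retroviruses in embryonic stem cells.

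Values were in TPM (so named in the table), which by definition are scaled per transcript length and keep no sequencing depth. The values of each cell summed to 979828 to 997050, but the length step is not given in the sources used here, and every comparison of levels between genes rests on it. A gene was called detected in a cell above 1 TPM. No culture, plate or day was named for the cells, so each telomere group counted as 1 sample of cells, no test between groups was made, and errors are the standard deviation (SD) across cells. The number of detected genes per cell ran from 2030 to 11515 and differed between the groups, with medians of 9165 (long), 8626 (medium) and 5620 (short). Of the 68 cells with more than 8000 detected genes, called gene-rich here, 51 were long, 14 medium and 3 short telomere cells, against 30, 11 and 12 of the 53 gene-poor cells. Fewer transcripts in a cell and poorer capture cannot be told apart in these values. The 7 markers of undifferentiated hESCs were detected in 113 (SOX2) to 121 cells (POU5F1, LIN28A and L1TD1), and their summed TPM had a median of 3034 in the long (1254 to 4396), 2615 in the medium (870 to 4015) and 1523 in the short group (687 to 3030). NANOG was detected in 98.8% of long and 73.3% of short telomere cells, and the part of this in the results below was not tested. Of the markers of other cell types, the endoderm genes were detected in 0 (GATA6) to 5 cells, the mesoderm genes in 1 to 46 (MIXL1), the neural genes in 9 to 100 (NES) and the fibroblast genes in 0 (COL3A1), 1 (DCN), 21 (COL1A1) and 77 cells (COL1A2).

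The HP1 genes stood highest among the 10. On the scale of mean log2(TPM + 1) over the 121 cells, CBX3 reached 7.47 ± 1.25 (SD), CBX1 6.84 ± 1.10 and CBX5 5.53 ± 1.01. TRIM28 lay beside CBX5 at 5.49 ± 1.45 and was the lower of the pair in 62 of 121 cells. ATRX at 4.16 ± 1.43 and DAXX at 4.13 ± 2.19 were next, and their mean difference of 0.03 was far below the SD of that difference across cells, 2.26. The methyltransferases were lowest, with SUV39H2 at 3.51 ± 2.06, EHMT2 at 2.75 ± 1.75, SETDB1 at 2.08 ± 1.84 and SUV39H1 at 0.72 ± 1.33. Every step between neighbours in this order was smaller than the SD of the difference across cells, and some steps were held by most single cells, such as CBX1 above CBX5 in 107 and TRIM28 above ATRX in 106 of 121. Others turned with the measure: by mean TPM, TRIM28 (63.9) stood above CBX5 (53.6) and DAXX (35.1) above ATRX (24.2). The means of the readers of the mark were above those of its writers on both scales.

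CBX1 was detected in all 121 cells, CBX3 and CBX5 in 119 each, TRIM28 in 117 and ATRX in 115. DAXX was detected in 99 cells, SUV39H2 in 96, EHMT2 in 94, SETDB1 in 73 and SUV39H1 in 32. Within gene-rich cells CBX3, CBX1, TRIM28, CBX5 and ATRX were even from cell to cell, with SDs of 0.46, 0.56, 0.60, 0.61 and 0.65 on the log2 scale. The median SD over the 6213 genes averaging 10 TPM or more was 1.08 in the same cells. DAXX had an SD of 1.04 in gene-rich cells, EHMT2 1.15, SUV39H1 1.33, SUV39H2 1.40 and SETDB1 1.42. In the plot of levels by telomere group the filled points, the gene-rich cells, show this narrow band for the HP1 genes. The filled points of the methyltransferases scatter widely, down to 0. In gene-poor cells the HP1 genes scattered widely too, with SDs of 1.73 (CBX3), 1.53 (CBX1) and 1.29 (CBX5).

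**Figure D1:**
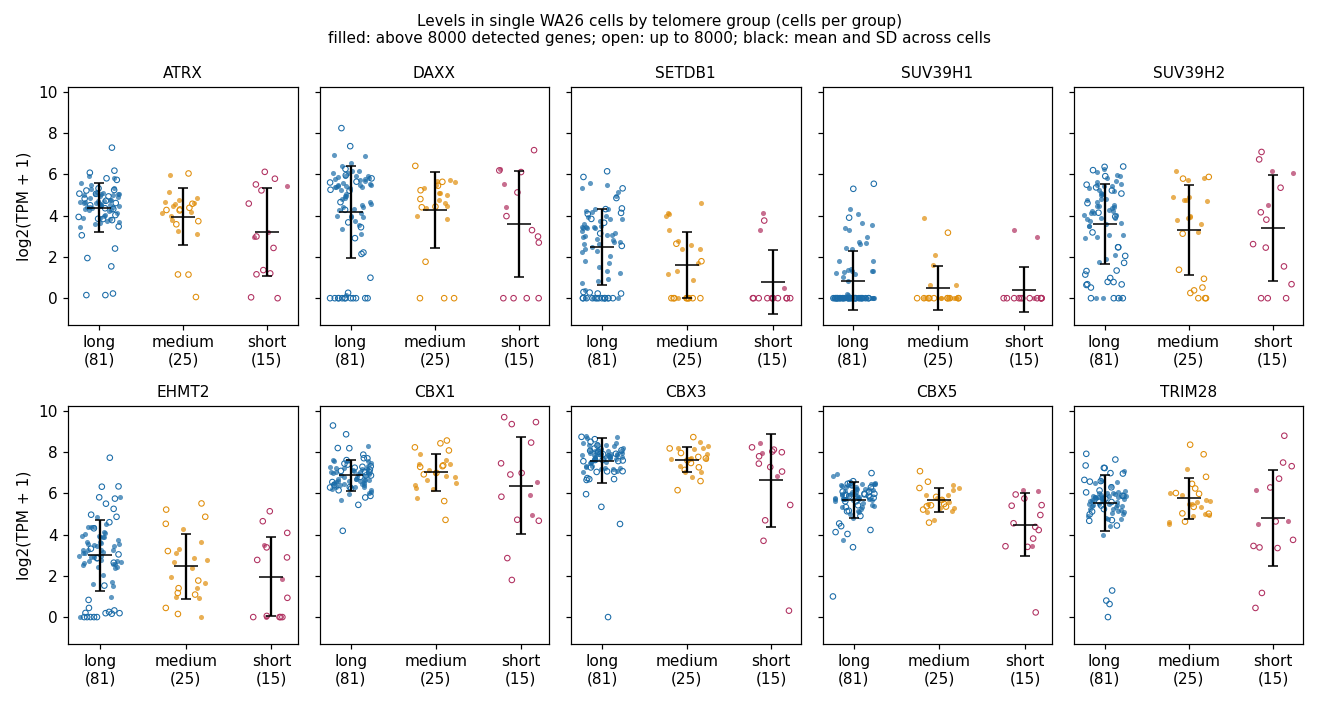
Level of each of the 10 genes as log2(TPM + 1) in single cells (points), by telomere group (81 long, 25 medium and 15 short telomere cells), with filled points for cells above 8000 detected genes, open points for the others and black bars for the mean and SD across cells. The groups overlap for every gene, and most of the lowest values are open points.

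ATRX, the chromatin remodeller of the pair, lies on chromosome X at positions 76760358 to 77041719 of GRCh37, the build called hg19 in the processing notes. It ran from 0.11 to 156 TPM with a median of 22.9 in long telomere cells, from 0.04 to 65.0 with a median of 18.4 in medium and from 0 to 68.7 with a median of 6.95 in short telomere cells. The ranges overlapped, and the short telomere cells had the lowest median. The mean log2(TPM + 1) was 4.39 ± 1.2 in long and 3.20 ± 2.14 in short telomere cells, a difference of 1.19, and the long telomere cell was the higher in 63.6% of pairs of 1 cell from each group. Within gene-poor cells the difference was 1.02 and within gene-rich cells, with 3 short telomere cells, 0.71. ATRX was detected in every gene-rich cell.

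DAXX, the chaperone that binds H3.3, lies on chromosome 6 at 33286335 to 33290793. Its median was 30.0 TPM in long (0 to 302), 26.9 in medium (0 to 84.1) and 14.8 in short telomere cells (0 to 143). The difference of long over short telomere cells was 0.59 on the log2 scale, within SDs of 2.22 and 2.58. The direction turned within both sets of cells, to -0.34 in gene-rich and -0.47 in gene-poor cells. DAXX followed the number of detected genes more closely than any other of the 10, with r = 0.54 over 121 cells and 0.00 over the 68 gene-rich cells. It was detected in 67 of 68 gene-rich cells and in 32 of 53 gene-poor cells. ATRX and DAXX, partners in 1 complex, correlated at r = 0.27 over all cells and at -0.11 over gene-rich cells.

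SETDB1, the methyltransferase recruited by TRIM28, lies on chromosome 1 at 150898739 to 150937220 and had a mean of 8.08 TPM. It ran from 0 to 70.0 TPM with a median of 6.00 in long, from 0 to 23.9 with a median of 1.5 in medium and from 0 to 16.4 with a median of 0 in short telomere cells. Of the short telomere cells 11 of 15 were at 0, and values above 0 occurred in every group. It was detected in 69.1% of long telomere cells (95% exact binomial interval 57.9 to 78.9), in 56.0% of medium (34.9 to 75.6) and in 20.0% of short telomere cells (4.33 to 48.1). These intervals cover counting error only. Its log2(TPM + 1) averaged 2.47 ± 1.83 (long), 1.59 ± 1.60 (medium) and 0.78 ± 1.54 (short), which gave the largest differences among the 10 genes, 1.70 for long over short and 0.88 for long over medium.

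Detection of SETDB1 went with the number of detected genes, the number that also defines gene-rich and gene-poor cells. Its mean log2(TPM + 1) was 1.64 higher in gene-rich than in gene-poor cells, beside a median of 1.45 over the 6213 genes. It was detected in 85.3% of gene-rich cells (74.6 to 92.7) and 28.3% of gene-poor cells (16.8 to 42.4), and r with the number of detected genes was 0.53. Within gene-rich cells its share was 86.3% in long and 85.7% in medium telomere cells, and the difference of long over short fell to 0.25 with 3 short telomere cells. Within gene-poor cells 12 of 30 long, 2 of 11 medium and 1 of 12 short telomere cells were above 1 TPM, and the difference of long over short was 1.46. The part of the number of detected genes in the group difference was not tested.

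The paired enzymes SUV39H1 and SUV39H2, which trimethylate lysine 9 at constitutive heterochromatin, were unequal in these cells. SUV39H2 (chromosome 10, 14920819 to 14946314) had a mean of 23.0 TPM and SUV39H1 (chromosome X, 48553945 to 48567407) a mean of 2.22 TPM. SUV39H2 was detected without SUV39H1 in 38 of 68 gene-rich cells, both in 27, SUV39H1 alone in 1 and neither in 2. SUV39H2 thus made up most of the measured transcript of the pair. By group, SUV39H2 had a median of 16.4 TPM in long (0 to 82.4), 13.8 in medium (0 to 69.8) and 13.0 in short telomere cells (0 to 135), the smallest long over short difference of the 10 genes, 0.19 on the log2 scale. In gene-rich cells it was lower in long, 4.15 ± 1.49, than in medium telomere cells, 4.58 ± 0.90, and the 3 short telomere cells had 21.6, 65.4 and 70.6 TPM. Its order between groups therefore turned with the set of cells. In gene-rich cells the short telomere mean was above the medium one (medium minus short -0.99), by more than the SDs of 0.90 and 0.93. The medium telomere cell was still the higher in 21.4% of pairs, and the difference rests on 3 short telomere cells.

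SUV39H1 had a median of 0 TPM in all 3 groups and highest values of 45.7 (long), 13.7 (medium) and 8.80 (short). It was detected in 32.1% of long (95% exact interval 22.2 to 43.4), 16.0% of medium (4.54 to 36.1) and 13.3% of short telomere cells (1.66 to 40.5), and the intervals overlapped. A share of 41.2% of gene-rich cells and 7.55% of gene-poor cells were above 1 TPM. Its difference of long over short was 0.44.

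EHMT2 (G9a), which with its partner EHMT1 mono- and dimethylates lysine 9, lies on chromosome 6 at 31847536 to 31865475. Its median was 7.61 TPM in long (0 to 210), 4.17 in medium (0 to 44.5) and 2.58 in short telomere cells (0 to 34.0). The mean log2(TPM + 1) was 2.99 ± 1.73, 2.45 ± 1.59 and 1.95 ± 1.92 in that order, so that long exceeded short by 1.05. EHMT2 had r = 0.15 with the number of detected genes, against 0.53 for SETDB1, yet it too was detected less often in gene-poor cells, in 32 of 53 against 62 of 68 gene-rich cells. Within gene-rich cells it was 3.18 ± 1.00 in 51 long and 2.28 ± 1.19 in 14 medium telomere cells, a difference of 0.90 that was smaller than either SD. The long telomere cell was the higher in 72.1% of pairs, and the median difference over the 6213 genes in the same cells was 0.04. Within gene-poor cells long and medium differed by 0.01.

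CBX1 (HP1 beta; chromosome 17, 46147414 to 46178840) had a median of 115 TPM in long (17.1 to 622), 126 in medium (25.2 to 375) and 91.0 in short telomere cells (2.48 to 824). The lowest and the highest value of CBX1 over all cells were thus both in the short telomere group, whose SD was 2.34 against 0.74 in long and 0.90 in medium. CBX1 was the only one of the 10 whose mean log2(TPM + 1) was lower in gene-rich than in gene-poor cells, by -0.18, where the median over the 6213 genes was 1.45 higher. By mean TPM, TRIM28 (50.0 against 81.8) and EHMT2 (9.06 against 17.7) were lower in gene-rich cells too. For CBX1 the difference of long over short was 0.50. A limit of 4000 detected genes leaves out short telomere cells only, as the fewest were 4002 in long and 4189 in medium telomere cells. Without the cells under this limit the CBX1 difference of long over short was 1.54. In gene-rich cells it was 0.99 (6.79 ± 0.50 in 51 long and 5.80 ± 0.80 in 3 short telomere cells), the long telomere cell being higher in 88.9% of pairs, and medium exceeded short there by 1.05. These 2 differences were larger than both groups' SDs but rest on 3 short telomere cells.

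CBX3 (HP1 gamma; chromosome 7, 26240782 to 26253227) had a median of 216 TPM in long (0 to 436), 204 in medium (70.0 to 421) and 172 in short telomere cells (0.24 to 348). Its difference of long over short was 0.96 over all cells, 0.81 in gene-poor and 0.07 in gene-rich cells. CBX5 (HP1 alpha; chromosome 12, 54624726 to 54673917) had a median of 57.1 TPM in long (1.00 to 125), 47.0 in medium (22.9 to 133) and 22.4 in short telomere cells (0.17 to 70.0). Over all cells the short telomere group was lower in CBX5 than the other groups more regularly than in any other of the 10 genes. The long telomere cell was higher in 77.4% and the medium telomere cell in 75.2% of pairs. In gene-poor cells these shares were 76.1% and 81.1%. In gene-rich cells, with 3 short telomere cells, they were 56.5% and 47.6%. The difference of long over short, 1.21 on the log2 scale, was 1.09 in gene-poor and 0.64 in gene-rich cells, and it was below the short group's SD of 1.54.

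CBX3 and CBX5 had the highest Pearson's r of the 45 pairs of the 10 over all cells, 0.65 between their log2(TPM + 1) values, while their rho was 0.34. By rho SETDB1 with SUV39H2 was highest at 0.43 (r = 0.45), a pair at r = 0.11 in gene-rich cells. CBX1 had r = 0.07 with CBX3 and -0.01 with CBX5. The bases around their start sites are shown to set the 3 readers side by side, 100 before to 20 after the start in RefSeq (GRCh38.p14 table), each with 1 exact match in GRCh37: CBX1 at chr17:46178529-46178648 on the minus strand, CBX3 at chr7:26240963-26241082 on the plus strand and CBX5 at chr12:54673887-54674006 on the minus strand. Capitals mark matches on either strand to TTTGGCG, a core of E2F sites, to GCGCATGCG, a core of NRF1 sites, and to CCAAT, letters chosen after the sequences were seen.
CBX1: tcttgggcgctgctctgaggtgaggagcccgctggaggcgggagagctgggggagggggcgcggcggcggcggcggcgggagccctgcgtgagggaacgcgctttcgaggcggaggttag
CBX3: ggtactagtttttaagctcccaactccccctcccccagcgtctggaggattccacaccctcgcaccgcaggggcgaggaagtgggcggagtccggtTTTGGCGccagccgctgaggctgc
CBX5: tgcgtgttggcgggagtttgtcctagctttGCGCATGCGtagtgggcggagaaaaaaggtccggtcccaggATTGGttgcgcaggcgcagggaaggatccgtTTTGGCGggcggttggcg

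CBX3 and CBX5 both held TTTGGCG at the start site, beginning 4 bases before it in CBX3 and at base 3 after it in CBX5, and CBX1 held none of these letters in its window of 250 bases before to 50 after the start. Of the 35116 windows of that length in the table, 1.92% held TTTGGCG, 1.92% GCGCATGCG and 34.6% CCAAT. The table had entries for 7 of the 10 genes, all but ATRX, DAXX and TRIM28. Both CBX3 and CBX5 are also divided head to head from an hnRNP gene, HNRNPA2B1 and HNRNPA1. The protocol does not mark strand, so in the stretch where the GENCODE models of CBX3 and HNRNPA2B1 overlap their reads cannot be told apart. CBX3 and HNRNPA2B1 correlated at -0.09 and CBX5 and HNRNPA1 at 0.31 over gene-rich cells, but the latter was 0.10 within long and -0.05 within medium telomere cells, with rho = 0.07 over the 68 cells.

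TRIM28, the corepressor (chromosome 19, 59055431 to 59062089), had a median of 51.1 TPM in long (0 to 240), 46.4 in medium (21.5 to 326) and 23.8 in short telomere cells (0.36 to 441). Its highest value, like that of CBX1, was in a short telomere cell. The difference of long over short was 0.73 within SDs of 1.34 and 2.34, and 0.50 in gene-rich cells. TRIM28 and SETDB1, which act together, did not move together: r was 0.06 over all cells and -0.21 over gene-rich cells.

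Every one of the 10 genes had its higher mean in the long than in the short group on the deposited scale, and for 0 of 10 was the difference larger than both groups' SDs. After scaling the cells by the median ratio over genes above 0 in every cell, which lowers the median over the 6213 genes to 1.02, the direction turned for SUV39H2 (-0.41), CBX1 (-0.25), DAXX (-0.02) and TRIM28 (-0.01). It also turned within gene-rich cells, against 3 short telomere cells, for SUV39H2 (-1.42), SUV39H1 (-1.01) and DAXX (-0.34), and within gene-poor cells for DAXX (-0.47) and SUV39H2 (-0.22). Among the 13439 genes averaging 1 TPM or more, the long mean was above the short one for 54.7% in gene-rich cells, beside 7 of the 10. In gene-poor cells it was for 66.8%, beside 8 of the 10. This share is not given here for the median ratio scaling. Over all cells on the deposited scale the long mean was the larger for 79.2% of these genes, beside all 10. Of the 8 genes that averaged 10 TPM or more, all but SETDB1 and SUV39H1, 3 (CBX5, ATRX and EHMT2) were higher by at least 1 on the log2 scale, a 2-fold difference of TPM + 1, beside 66.5% of the 6213 genes past this filter. None of the 8 was lower by as much, beside 1.71% of genes. The median difference of the 8 was 0.84 against 1.40 over the 6213 genes, and each of the 8 lay below that median. With SETDB1 and SUV39H1 included, which needs a minimum mean of 1 TPM, 4 of 10 passed beside 38.9% of 13439 genes.

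Against medium telomere cells the long group was nearly level. None of the 8 genes was higher by at least 1 in long telomere cells, beside 1.75% of genes, and none lower, beside 0.66%. The median difference was -0.01 for the 8 and 0.14 for the 6213 genes. Against short telomere cells the medium group was higher by at least 1 in 2 of 8, CBX5 at 1.18 and CBX3 at 1.00, beside 59.9% of genes, and lower in 0 of 8, beside 2.01%. The groups of long and medium cells enter 2 of these 3 comparisons each, as do the short cells, so the comparisons share their cells.

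**Figure D2:**
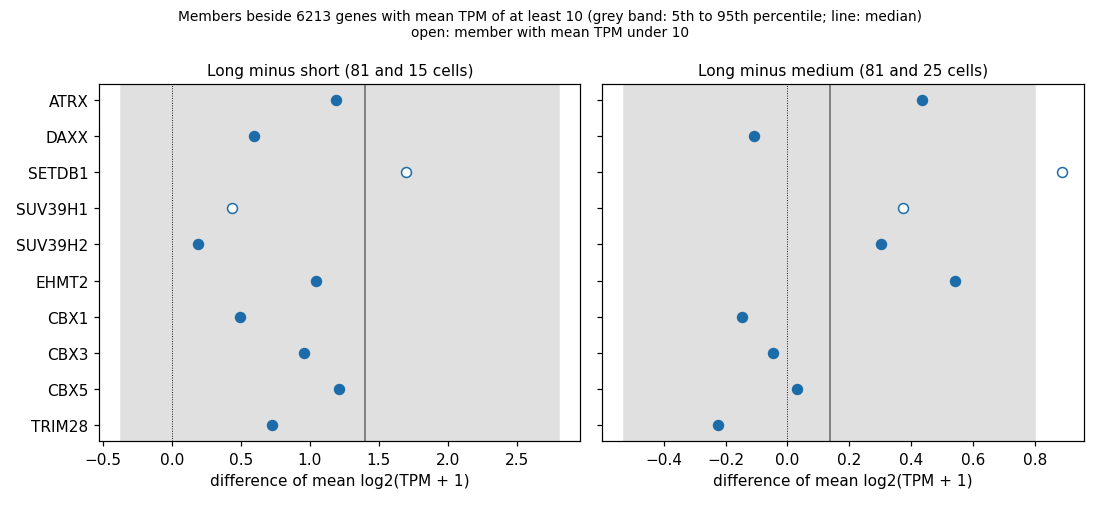
Difference of mean log2(TPM + 1) for the 10 genes (points; open for SETDB1 and SUV39H1, whose mean TPM is under 10), long minus short on the left and long minus medium on the right, over the 5th to 95th percentile (grey) and median (line) of 6213 genes. On the left every filled point lies between 0 and the median of 1.40, and on the right SETDB1 stands farthest out at 0.88.

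As the groups are ranges of 1 measure, each gene was also set against the T/R ratio itself across the 121 cells, with Pearson's r on TPM as a description. The coefficients ran from -0.08 (CBX1) to 0.24 (SUV39H1), with ATRX at 0.22, CBX5 at 0.16, DAXX at 0.15, CBX3 at 0.09, EHMT2 at 0.08, SETDB1 at 0.06, SUV39H2 at -0.05 and TRIM28 at -0.06. Of the 8 genes past the filter, 1 (ATRX) reached 0.2, beside 11.7% of the 6213 genes, and 0 reached -0.2, beside 2.09%. With all 10 and the lower filter, 2 of 10 reached 0.2, beside 8.24% of genes. The median over the 8 was 0.09 against 0.04 over the 6213 genes.

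Both coefficients past 0.2 rested on the same cell. Long_3, a gene-poor cell with 5428 detected genes, held the highest ATRX value of all cells, 156 TPM beside 71.5 in the next, and the highest SUV39H1 value, 45.7 TPM. Without it r fell to 0.09 for ATRX and 0.11 for SUV39H1. The same cell was at 0 TPM for DAXX and at 0.17 for SETDB1. Spearman's rho over the 121 cells was 0.18 for ATRX and 0.09 for SUV39H1, and CBX5 had the highest rho of the 10, 0.22, with r between 0.13 and 0.20 when any 1 cell was left out.

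Within gene-rich cells none of the 10 reached 0.2 in r, beside 8.81% of 13382 genes averaging 1 TPM or more. None reached -0.2, beside 5.01%. EHMT2 had r = 0.17 and rho = 0.30 there, CBX5 0.20 and 0.21, and SUV39H2 -0.17 and -0.18. ATRX was at 0.11 with rho = 0.22 in gene-rich cells, which do not include Long_3, and at 0.26 with rho = 0.18 in gene-poor cells, and SUV39H1 had r = 0.02 in gene-rich and 0.32 in gene-poor cells, where it was detected in 4 of the 53 gene-poor cells. Within the long telomere group SETDB1 ran the other way from its group means, with r = -0.22 and rho = -0.29 over 81 cells. Among the other genes the coefficients within this group lay between -0.11 for CBX5 and 0.23 for SUV39H1.

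**Figure D3:**
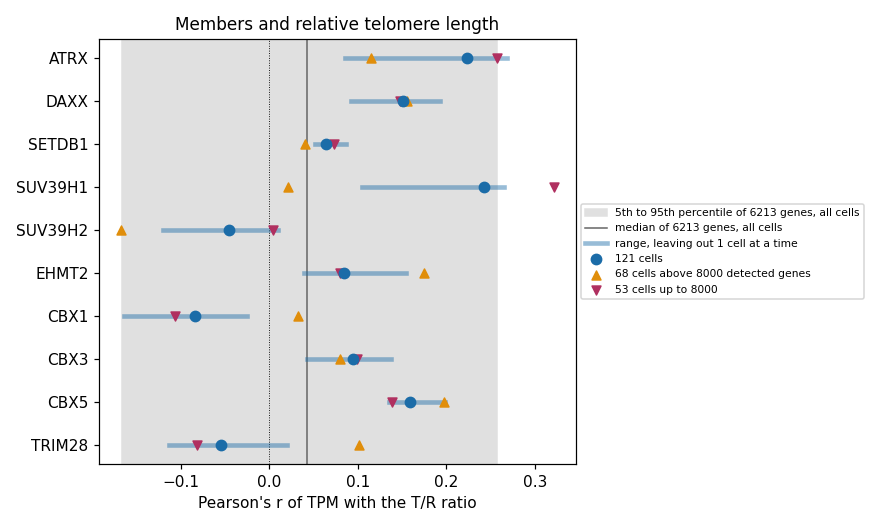
Pearson's r of TPM with the T/R ratio for each of the 10 genes over 121 cells (circles), 68 gene-rich cells (upward triangles) and 53 gene-poor cells (downward triangles), with the range of r when 1 cell at a time is left out (bars), over the 5th to 95th percentile (grey) and median (line) of 6213 genes. The bars of ATRX and SUV39H1 reach down to 0.09 and 0.11, the values without the cell Long_3.

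Pairs of the 10 genes were compared cell by cell on log2(TPM + 1). Over 121 cells the median r of the 45 pairs was 0.17, and 0.16 for a member with any gene of mean TPM at least 10, so the general level was that of the table. Over the 68 gene-rich cells the medians were 0.03 and 0.03, and 32 of 45 pairs lay within 0.2 of 0. The highest pair there was CBX1 with TRIM28 at 0.45, between 0.42 and 0.51 when any 1 cell was left out, 0.34 in the 51 long and 0.63 in the 14 medium telomere cells. CBX1 with TRIM28 had r = 0.13 over all 121 cells and 0.09 over the 53 gene-poor cells. In gene-rich cells CBX3 with CBX5 followed at 0.37, and at 0.29 without the cell Short_10. SETDB1 with SUV39H1 reached 0.31, and both were detected in 27 of 68 cells and neither in 9. The lowest pair was DAXX with SUV39H2 at -0.25.

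**Figure D4:**
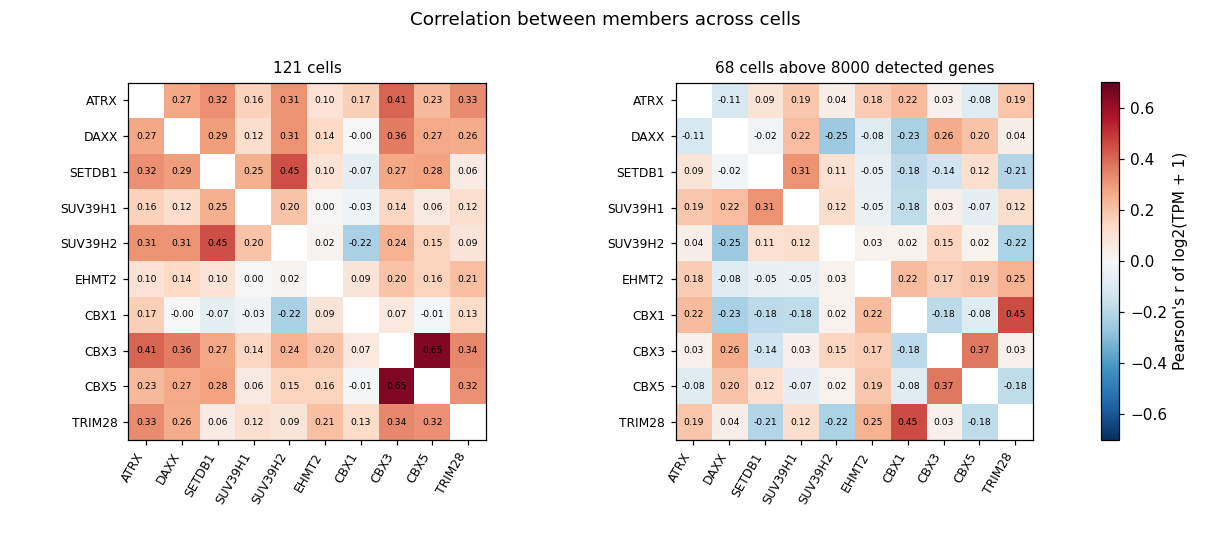
Pearson's r between the 10 genes on log2(TPM + 1), over 121 cells on the left and over the 68 cells above 8000 detected genes on the right, with red for positive and blue for negative values. CBX3 with CBX5 is the darkest red on the left at 0.65, and CBX1 with TRIM28 on the right at 0.45.

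Cell cycle genes and ribosomal protein genes were read beside these pairs. In gene-rich cells TRIM28 followed the mean of 10 S phase genes (PCNA, the MCM2 to MCM7 helicase genes and others) at r = 0.44 and CBX1 at 0.27, where the median gene stood at 0.02 and 0.13% of 6186 genes were above TRIM28. CBX3 stood at 0.01 in these cells, although it had the highest coefficient of the 10 with the S phase mean over all cells, 0.58. Over all cells TRIM28 stood at 0.18 and CBX1 at 0.04 with that mean, beside a median gene at 0.30. In gene-poor cells TRIM28 stood at 0.15 and CBX1 at 0.06, beside 0.20. With the mean of 10 G2/M genes ATRX was highest in gene-rich cells at 0.25 and TRIM28 lowest at -0.18, beside a median gene at 0.06. With the summed TPM of 86 ribosomal protein genes CBX1 had r = -0.33, TRIM28 -0.34 and ATRX -0.32, while CBX5 had 0.34 and CBX3 0.08. The value of CBX5 was 0.42 in the 51 long and 0.02 in the 14 medium telomere cells, and 0.22 without the cell Long_7. The pair CBX1 and TRIM28 thus shared its direction on both measures, and the part of these measures in the coefficient of 0.45 was not tested.

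For each of the 10 the genes most like it were taken as the 3 with the highest r in gene-rich cells among genes of mean TPM at least 10, where r was 0.4 or more. ATRX was most like RBM25, a splicing factor gene, at 0.54, RSF1, a remodelling factor gene, at 0.52, and PRKRIP1 at 0.50. DAXX led with CDCA7 at 0.56, TFG at 0.52 and MCFD2 at 0.49, but without the cell Long_74 these were 0.33, 0.28 and 0.31. CBX1 was most like NDUFB2, HMGB1 and MEA1 at 0.65, 0.65 and 0.62. CBX3 and CBX5 shared PTGES3, a cochaperone of HSP90, at 0.60 and 0.59. In gene-poor cells PTGES3 stood at 0.64 with CBX3 and 0.62 with CBX5, whereas the 3 genes most like CBX1 stood at 0.26, 0.10 and 0.01 with it.

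CBX3 was further like CCT4 and PPP2CA (0.53 and 0.52), and CBX5 like RPL19 and EIF2S3 (0.62 and 0.59), which stood at 0.09 and 0.22 with it in the 14 medium telomere cells. SETDB1 was most like PHF3, NUP98 and COQ2 (0.45, 0.44 and 0.43). In the same order these were 0.57, 0.55 and 0.51 within the 51 long telomere cells. Within the 14 medium telomere cells they were 0.02, -0.003 and 0.13, and in gene-poor cells 0.33, 0.59 and 0.12. TRIM28 was most like PSMG1, RNPS1 and POLD3 (0.60, 0.59 and 0.55), of which POLD3 encodes a subunit of DNA polymerase delta. SUV39H1 was most like ARRDC3-AS1 and PRODH (0.43 and 0.41), and SUV39H2 like EXOC5, CHD8 and NOA1 (0.52, 0.47 and 0.47).

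EHMT2 was most like TERF1, which encodes the telomere repeat binding protein TRF1 of shelterin, with r = 0.53 and rho = 0.47 over the 68 gene-rich cells. The coefficient stayed between 0.46 and 0.57 when any 1 cell was left out and was 0.31 within the 51 long and 0.63 within the 14 medium telomere cells. CCDC34 at 0.50 and the centromere protein gene CENPU at 0.47 followed. In the 53 gene-poor cells EHMT2 and TERF1 had r = 0.01. These were the highest of 6205 coefficients each, so their size reflects that choice, and the median coefficient of EHMT2 was 0.03.

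**Figure D5:**
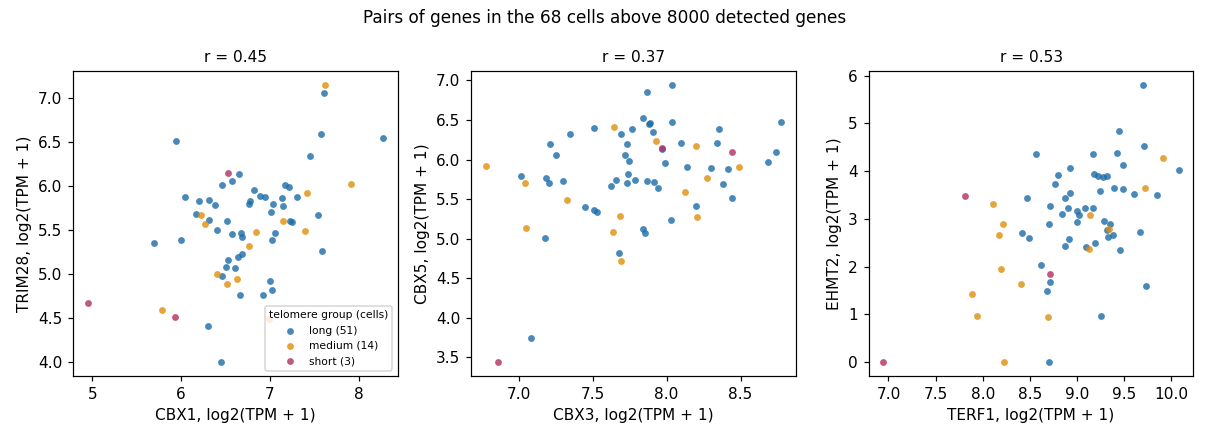
Levels as log2(TPM + 1) of CBX1 and TRIM28, CBX3 and CBX5, and TERF1 and EHMT2 in the 68 cells above 8000 detected genes, coloured by telomere group (51 long, 14 medium and 3 short telomere cells). The coefficients are 0.45, 0.37 and 0.53, and the short telomere cell at the lower left of the panels of CBX5 and of EHMT2 is Short_10, without which these coefficients are 0.29 and 0.46.

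Another 33 genes of the same pathways were counted by a list. Of the 20 averaging 10 TPM or more, 13 were higher by at least 1 in the long than in the short group and 0 lower, beside 66.5% of all such genes, and their median difference was 1.64. Among genes for H3.3 deposition and PML bodies, H3F3A, which encodes H3.3, had the largest difference at 2.63, and 1.37 within gene-poor cells. H3F3B, which also encodes H3.3, had the higher mean of the 2, 937 against 381 TPM. Its difference was 0.66, and 1.23 within gene-poor cells. SP100, a PML body gene, was lower in long telomere cells at -1.06 (1.36 ± 0.76 in long and 2.42 ± 2.1 in short). Among partners of the methyltransferases EHMT1 stood at 2.50 and SETDB2 at -0.36, so EHMT1 differed more than its partner EHMT2 at 1.05. In the HUSH complex, which spreads lysine 9 methylation, PPHLN1 stood at 1.28 and MPHOSPH8 at 0.51.

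The lysine 20 methyltransferase genes SUV420H1 and SUV420H2 stood at 2.32 and 0.59. The lysine 9 demethylase genes ran from 0.08 for KDM4B to 2.05 for KDM1A, and the partners of HP1 from -0.30 for CHAF1A, the large subunit of a replication-coupled histone chaperone, to 2.42 for ADNP. With the T/R ratio 2 of the 32 averaging 1 TPM or more, H3F3B at 0.22 and WIZ at 0.25, reached 0.2, beside 8.24% of such genes, and 1, SP100 at -0.23, reached -0.2, beside 2.82%. ATF7IP, the stabilising partner of SETDB1, correlated with it at 0.30 in gene-rich cells, and EHMT1 with EHMT2 at -0.07 there.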

How the data were processed

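The deposited table gave TPM values of 25610 genes in 121 WA26 cells, each 1 GEO sample. The authors made the TPM from polyA reads of Smart-seq2 libraries, and the submitters' processing notes name TopHat2, RSEM and hg19. The study's methods name HTSeq counts and DESeq size factors, so which counts the TPM rest on, and whether they were divided by length, is not settled. The table was read up to the gene ZFR, and genes after it were not analysed here. The depth of each cell is unknown here, since TPM keep none. The study reports an average read number per cell and no significant correlation of mapping ratio with telomere length.

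Groups came from the sample titles. The T/R ratios were read from the study's supplement and only used in correlations. The 10 genes, lists, thresholds and the border of 8000 detected genes were chosen with earlier results of these data known. Differences are of mean log2(TPM + 1), a scale that understates the differences of low genes. A tied pair counts as 0.5. Intervals are exact Clopper-Pearson at 95%. With 1 sample of cells per group no test was made. Named genes were the 10, the genes with the largest and smallest long minus short difference in each list, the 3 most like each member (r of at least 0.4) and the cell type markers. Genes H3F3B, WIZ, ATF7IP, HNRNPA2B1 and HNRNPA1 were named after their values were seen.

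CBX3, CBX1 and CBX5 have 10, 5 and 1 annotated processed pseudogenes of their name (GENCODE on GRCh37), and ATRX, CBX3, CBX5, SETDB1, SUV39H1, SUV39H2 and EHMT2 overlap a gene or pseudogene on the other strand, so their values are uncertain where reads are shared. The functions were checked on simulated data. Versions were pandas 2.3.3, scipy 1.17.1, numpy 2.4.6, matplotlib 3.10.9 and Python 3.11.15. Alternatives were other pseudocounts, scalings, sets of cells, correlation measures, filters and detection limits.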

Additional observations from a re-analysis of the deposited data

How the results depend on the processing

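The number of genes at least 1 higher in long than in short telomere cells, 4 of 10 as reported, depended most on the set of cells and the scale. It was 0 with a pseudocount of 10 and 0 between the 40 highest and the 40 lowest T/R ratios, 1 after scaling cells by the median ratio over 602 genes above 0 in every cell and 1 (EHMT2) in gene-rich cells, and 2 without cells under 4000 detected genes. It was 3 in gene-poor cells, 5 without ribosomal protein genes and 6 with a pseudocount of 0.1. The share of the 13439 genes averaging 1 TPM or more moved as well. It was 38.9% over all cells, 26.4% in gene-poor and 11.4% in gene-rich cells, and is not given here for the other alternatives. The median difference over the 10 stayed positive, from 0.27 to 1.04. The median ratio scaling also moved the median of the 6213 genes from 1.40 to 1.02. The number of genes with r of at least 0.2, 2 of 10 as reported, was 1 after the median ratio scaling, 1 with Spearman's rho, 0 on the log2 scale and 0 in gene-rich cells, and 2 in the other alternatives, with a median r from 0.00 to 0.11. Leaving out the cell with the highest TPM of each gene was added after seeing the data. None of the 10 reached 0.2 there, with CBX5 highest at 0.19, SUV39H1 at 0.11 and ATRX at 0.09. The cause of these shifts was not tested. Of 90 single gene differences 88 moved by less than the SD, and of 100 correlations 81 moved by less than 0.1. The SD is a wide limit, which SUV39H2 kept while going from 0.19 to -1.42 in gene-rich cells. Of the 90 differences 77 were above 0, as were all 10 in the main setting. Without cells under 4000 detected genes, all of which were short telomere cells, the differences of SUV39H2 and DAXX were -0.85 and -0.15. No paired analysis was possible because the numbers in the titles only count cells and no test was made.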
